A study of Arabidopsis thaliana with 12 samples.

Results

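The level of each transcript on the second day of sampling was compared with its level at the same circadian time on the first day. All 12 of the 12 Affymetrix ATH1 arrays of the series entered the comparison, 6 for each day, and they were placed by harvest time alone. The first day, cycle 1, held the harvests at 24, 28, 32, 36, 40 and 44 h in constant white light. The second day, cycle 2, held those at 48, 52, 56, 60, 64 and 68 h. Each array of cycle 2 was paired with the array 24 h earlier, which gave 6 pairs named by circadian time, from CT0 at subjective dawn to CT20. All 12 harvests were whole seedlings of wild-type Col-0 that carried a CCR2::LUCIFERASE reporter. They had been entrained for 7 d to 12 h of light and 12 h of dark at 22 °C, on medium with 3% sucrose, before the light was left on. Each harvest was measured on 1 array, and nothing states whether the harvests came from separate cultures, so the p-values below describe the spread between these arrays only.

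Harvests at the same circadian time on successive days share a phase of the clock but not an age, since seedlings go on growing. In constant light they also go on photosynthesizing through the subjective night, when stored starch would otherwise be drawn down. The comparison asks which transcripts differed in level between days at a matched phase. Both cell composition and RNA per cell can set a level in whole seedlings, and fewer cells of a type cannot be told apart from less RNA per cell here. The root marker PYK10, a root and hypocotyl beta-glucosidase, had intensities of 9789 to 10294 in cycle 1 and 9081 to 10841 in cycle 2. The other root markers tested, EXPA18 and EXPA7, had 363 to 472 and 186 to 264 in cycle 1. In cycle 2 they had 315 to 458 and 178 to 250. Of these 3 root markers, only PYK10 had a higher mean in cycle 2. The green tissue marker RCA, Rubisco activase, spanned 7618 to 12782 and 8592 to 12126. Both organs were thus represented on both days at overlapping levels.

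The scanner records divide the arrays in another way. The 4 arrays of 56, 60, 64 and 68 h had a scan day of their own, called scan day 2 here, and the 28 h array also had its own, scan day 3. The other 7 arrays shared scan day 1. Only the CT0 pair (24 and 48 h) had both arrays on 1 scan day. In the 4 pairs from CT8 to CT20 the second day coincided with scan day 2, and there the day of sampling and the scan day cannot be told apart.

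Transcript levels on the second day differed little from those on the first. None of 9161 genes tested passed an adjusted p of 0.05 in limma, in either direction (0% higher and 0% lower). The lowest adjusted p was 0.0557. At an unadjusted p below 0.05, 490 genes (5.35%) had a higher mean in cycle 2 and 515 (5.62%) a lower mean. Together these were 1005 genes, or 10.97%, and the threshold of 0.05 applies to both directions together. The difference had the same sign in all 6 pairs for 272 genes higher in cycle 2 (2.97%) and 262 lower (2.86%). Leaving out the CT12 pair reduced the unadjusted counts to 263 higher and 332 lower. Without the CT20 pair 292 genes were higher, and without the CT8 pair 315 were lower.

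The differences were also small in size. Across genes their median was 0.0035 on the log2 scale, with 95% of them between -0.20 and 0.18. Only 156 genes differed by more than 0.25, and only 2 by more than 0.5. The median standard error was 0.061, so that the 95% interval of a typical gene reached 0.13 to either side of its estimate, or 1.097-fold. The range of a typical gene over the 6 circadian times, taken as the mean of both days, had a median of 0.24. The median absolute difference between days was 0.058. These measures are not alike. A range over 6 means of 2 arrays tends to be wider than 1 difference between means of 6 arrays, even from noise alone. For 295 genes the difference between days was larger than this range over the day. Direction varied with level. Genes were divided by mean intensity into 4 groups of 2290 or 2291. In the dimmest group 96 were higher and 214 lower at an unadjusted p below 0.05, whereas in the brightest 164 were higher and 68 lower.

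**Figure D1:**
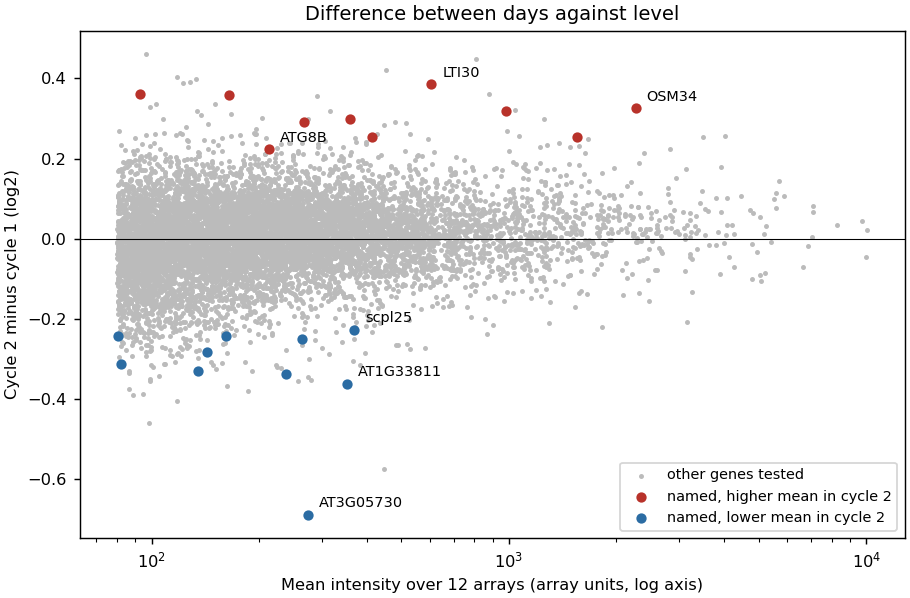
Log2 difference between cycle 2 and cycle 1 (vertical axis) against mean intensity over 12 arrays (horizontal log axis) for 9161 genes, with the 10 named genes of each direction coloured. Nearly all points lie within 0.25 of 0, and AT3G05730 stands lowest at -0.69.

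Since no gene was called, the genes described next are the 10 in each direction with the lowest unadjusted p among those whose difference had the same sign in all 6 pairs. Their shared sign across pairs was a condition of this choice. LTI30, on chromosome 3, encodes a dehydrin, a hydrophilic protein made during cold, drought and abscisic acid treatment. Its intensity in cycle 1 had a lowest value of 430, a median of 520 and a highest value of 641. In cycle 2 these were 558, 679 and 847. The days overlapped, but 4 of the 6 arrays of cycle 2 were above every array of cycle 1, and the shape over the day was alike on both days, with high values at CT8 and CT12. The mean was higher in cycle 2 by 0.39 ± 0.048 on the log2 scale (SE, n = 6 pairs), or 1.31-fold, with an adjusted p of 0.0557 in limma. The 6 pairs ranged from 0.28 to 0.46, and the pair within scan day 1 differed by 0.38.

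OSM34, on chromosome 4, encodes osmotin 34, a protein of the thaumatin-like family known for accumulating under osmotic stress and attack by fungi. Its intensity ran from 1554 through a median of 2056 to 2330 in cycle 1, and from 1865 through 2688 to 2796 in cycle 2. On both days the dawn array (24 or 48 h) was well below the other 5, and the other 5 arrays of cycle 2 were above every array of cycle 1. The difference was 0.33 ± 0.051 (SE, n = 6 pairs; adjusted p = 0.207 in limma).

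ATG8B encodes an ATG8 protein, a small ubiquitin-like protein that is attached to the membrane of the growing autophagosome. Its intensities were 178, 198 and 223 as lowest, median and highest in cycle 1 and 214, 227 and 258 in cycle 2. Again 5 arrays of cycle 2 were above all of cycle 1. The mean difference of 0.22 ± 0.046 (SE, n = 6 pairs; adjusted p = 0.266 in limma) had the narrowest span of the 20 named genes, with pairs from 0.19 to 0.28.

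The other 7 genes with a higher mean in cycle 2 carry a locus name only in the sources used here, and no role is given for them. For 4 of them the days did not overlap. AT2G15010 had intensities of 72.8 to 90.0 in cycle 1 and 94.8 to 114 in cycle 2. AT1G30750 had 220 to 262 and 270 to 335. AT5G42050 had 1312 to 1543 and 1561 to 1764, and its difference of 0.26 (SE 0.049, n = 6 pairs) was larger than its range of 0.19 over the circadian day. AT1G63980 followed the same pattern, with 348 to 418 in cycle 1 and 421 to 515 in cycle 2. In AT1G14120 and AT1G66020, 5 arrays of cycle 2 were above all of cycle 1, and in AT4G14060, 4 were. The adjusted p of these 7 genes lay between 0.207 and 0.266.

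**Figure D2:**
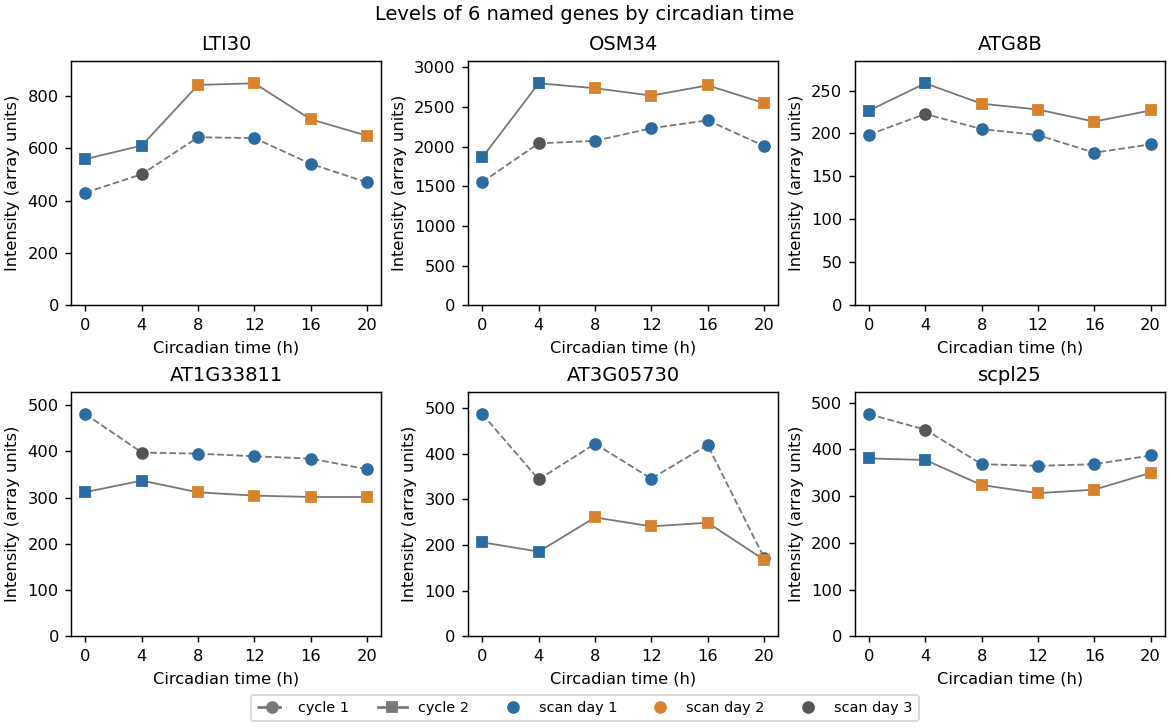
Intensity (vertical axis, array units, from 0) against circadian time (horizontal axis, h) for 6 named genes, with circles and dashed lines for cycle 1, squares and solid lines for cycle 2, and colour for scan day. LTI30, OSM34 and ATG8B were higher at each of the 6 times on the second day, and AT1G33811, AT3G05730 and scpl25 were lower at each, although AT3G05730 had nearly equal values at CT20.

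Among the 10 genes with a lower mean in cycle 2, AT1G33811 had the lowest unadjusted p. Its intensity in cycle 1 ran from 362 through a median of 392 to 481, and in cycle 2 from 301 through 308 to 337. All 6 arrays of cycle 2 were below all of cycle 1. The difference was -0.36 ± 0.059 (SE, n = 6 pairs; adjusted p = 0.207 in limma), and it was larger than the range of 0.23 over the circadian day.

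AT3G05730 had the largest difference of all genes tested, at -0.69 ± 0.119 (SE, n = 6 pairs; adjusted p = 0.207 in limma). Its values in cycle 1 were 173 at the lowest, 382 at the median and 487 at the highest, against 168, 223 and 260 in cycle 2. The size was uneven, from -1.24 in the CT0 pair to -0.04 in the CT20 pair, where the 44 h array of cycle 1 was already low. Without the CT20 pair the difference was -0.82, with an adjusted p of 0.0445.

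The gene scpl25, for a serine carboxypeptidase-like protein of a family of secreted and vacuolar hydrolases and acyltransferases, was the only other gene with a symbol. Its intensities were 365, 378 and 475 in cycle 1 and 306, 337 and 381 in cycle 2, so the days overlapped, with 4 arrays of cycle 2 below all of cycle 1. The difference was -0.23 ± 0.048 (SE, n = 6 pairs; adjusted p = 0.277 in limma).

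Of the remaining 7 genes lower in cycle 2, which carry locus names only, AT3G61400, AT3G19620, AT2G40630, AT1G11850 and AT3G19470 had all 6 arrays of cycle 2 below all of cycle 1. The mean intensities of AT3G61400 and AT3G19470, 82.2 and 80.5, were near the lowest tested, 80.1. Both were thus in the dimmest group, where lower genes outnumbered higher ones. AT2G40630 had 151 to 173 in cycle 1 and 120 to 138 in cycle 2. AT1G11850, with the smallest range over the circadian day of the named genes (0.14), had 165 to 188 and 144 to 154. AT5G58390 had 5 such arrays and AT5G62340 had 2. Over the 20 named genes the groups did not overlap in 4 of the 10 higher and 6 of the 10 lower in cycle 2, and in 11 of the 20 the difference between days was larger than the range over the circadian day. Over all 9161 genes, the 6 arrays of cycle 2 were above all of cycle 1 in 23 (0.251%) and below all in 19 (0.207%); the named genes were chosen by p and sign, so their share is a description only.

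**Figure D3:**
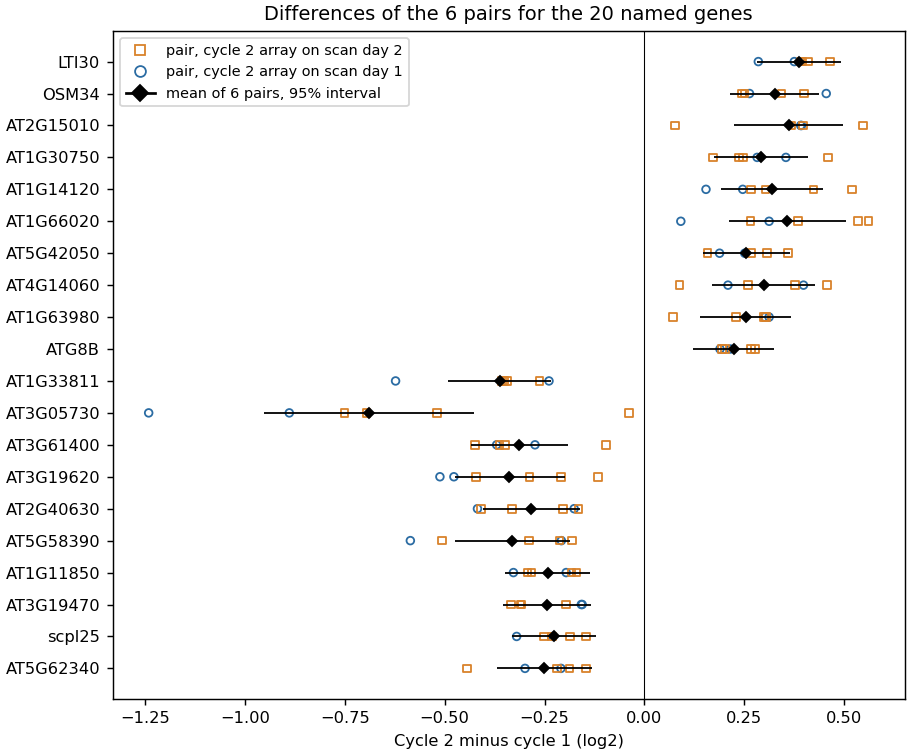
Log2 difference between cycle 2 and cycle 1 in each of the 6 pairs (open symbols) and its mean with a 95% interval from limma (diamonds) for the 20 named genes. Squares mark the 4 pairs whose cycle 2 array had scan day 2, and the widest spread is that of AT3G05730, from -1.24 to -0.04.

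The pairs were then set against each other across genes. Genes are not independent replicates, so these correlations are a description over 9161 genes. Among the 4 pairs with a cycle 2 array on scan day 2, Pearson's r was 0.24 to 0.49 in 5 of the 6 combinations, and highest between CT12 and CT20. In the sixth, CT8 and CT16, it was 0.06. The other 9 combinations, those with the CT0 or CT4 pair, had an r of -0.22 to 0.09, so the ranges met at the values for CT8. No array was shared between pairs. The mean difference over the 4 pairs and that over the other 2 pairs had an r of -0.13.

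**Figure D4:**
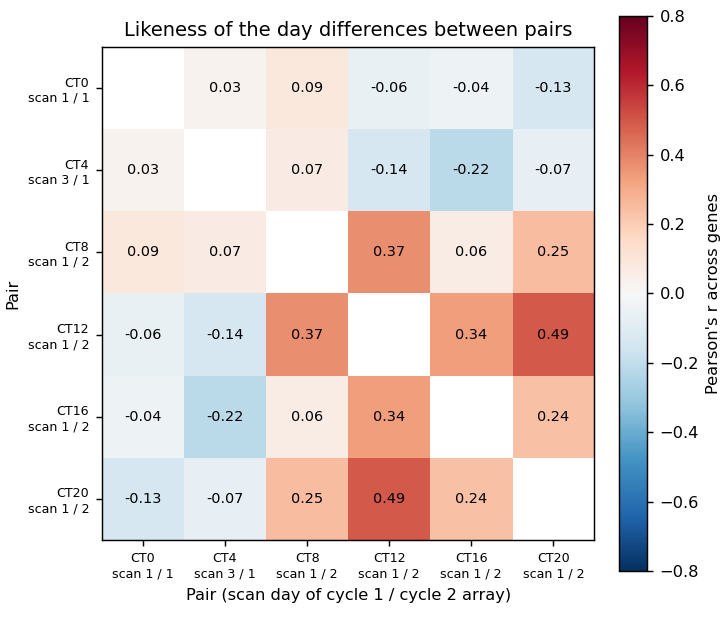
Pearson's r across 9161 genes between the log2 day differences of each 2 of the 6 pairs, labelled by circadian time and by the scan days of their 2 arrays. The block from CT8 to CT20, where cycle 2 had scan day 2, holds r of 0.06 (CT8 with CT16) to 0.49, and the other cells lie between -0.22 and 0.09.

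When those 4 pairs were fitted alone, an alternative added after the values were seen, 12 genes passed an adjusted p of 0.05 as higher in cycle 2 and 37 as lower. The other 2 pairs share no array with them. In the mean of those 2 pairs, 8 of the 12 and 12 of the 37 had the same sign, and the medians were 0.03 and 0.05, against 0.40 and -0.41 in the 4 pairs. Of the 37 lower genes, 25 were in the dimmest of the 4 intensity groups and 0 in the brightest. In the dimmest group the median difference of all genes was -0.036 over the 4 pairs and 0.0014 over the other 2, and in the brightest it was 0.031 and -0.0073. Whether time in light or scan day underlies these shared differences was not tested.

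Several genes of this set are described by name. LTI30 differed by 0.42 in the 4 pairs and by 0.33 in the other 2, and AT1G14120 and AT1G66020 were likewise higher in both. LTI30, AT1G14120 and AT1G66020 had been chosen earlier for a shared sign in every pair. Their being higher in both groups of pairs was thus fixed in advance. SPCH, for SPEECHLESS, the bHLH factor that starts the stomatal lineage, differed by -0.56 ± 0.094 in the 4 pairs (SE; adjusted p = 0.0451 in limma) but by 0.15 in the other 2. SWEET10, a sugar transporter, differed by -0.37 and 0.12. APL4, a large subunit of ADP-glucose pyrophosphorylase in starch synthesis, differed by 0.39 in the 4 pairs and by 0.12 in the other 2, where the CT4 pair was -0.03. SPCH, SWEET10 and APL4 were chosen for description after their values were seen.

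Gene groups were described by lists of symbols, 50 of which had at least 1 member tested, with 244 genes in all and 0 called. For comparison, the median difference of all genes was 0.0035 and the shares at an unadjusted p below 0.05 were those given above. Members other than the 2 with the highest mean level in each list were picked after their values were seen.

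The 10 tested genes of autophagy, through which cells degrade their own cytoplasm, had a median difference of 0.09. Of these, 3 had an unadjusted p below 0.05, each higher in cycle 2, and 3 were higher in all 6 pairs. ATG8B, already chosen by p and shared sign, was in both counts. In the 4 pairs with scan day 2, 9 of the 10 were higher, with a median of 0.08. In the other 2 pairs 6 were, with a median of 0.09, and in the CT0 pair 5 were, with a median of 0.02. APG8A, another ATG8 protein, had 409, 484 and 613 in cycle 1 and 502, 559 and 635 in cycle 2, a difference of 0.18 ± 0.056 (SE, n = 6 pairs; adjusted p = 0.336 in limma). ATG8H differed by 0.16 and ATG8D by 0.09. The most abundantly detected member, ATG8F, did not share this, at -0.02 (SE 0.061). APG8H, the next by level, differed by 0.10, with 5 of 6 pairs higher.

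The 3 tested genes of the anthocyanin list each had an unadjusted p below 0.05 and a higher mean in cycle 2. DFR encodes dihydroflavonol reductase, which forms the precursors of anthocyanins. Its intensity ran from 285 through a median of 858 to 1308 in cycle 1 and from 433 through 1084 to 1919 in cycle 2, and the days overlapped over most of this range. The difference was 0.45 ± 0.134 (SE, n = 6 pairs; adjusted p = 0.332 in limma). It was 1.09 in the CT0 pair, within scan day 1, but -0.23 in the CT4 pair. UF3GT, which adds a further sugar to anthocyanins, and AT5MAT, which adds a malonyl group, act later in the same branch. They differed by 0.86 and 0.75 in the CT0 pair and by -0.21 in the CT4 pair, with means of 0.29 and 0.31. UGT78D2, the glucosyltransferase that puts the first sugar on anthocyanidins and is held by the glycosyltransferase list, differed by 0.10 ± 0.085 (unadjusted p = 0.278 in limma), with -0.31 in the CT4 pair and -0.14 in the CT20 pair.

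Of 15 tested SWEET and tonoplast sugar transporter genes, 3 had a higher and 12 a lower mean in cycle 2, with a median of -0.10, and 5 of the lower ones had an unadjusted p below 0.05. The sign differed between the groups of pairs. In the 4 pairs with scan day 2, 4 of the 15 were higher and the median was -0.20, whereas in the other 2 pairs 10 were higher and the median was 0.05. In the CT0 pair alone, 9 were higher. SWEET2 had a median of 169 in cycle 1 and 147 in cycle 2, with overlapping ranges of 149 to 191 and 126 to 187. It differed by -0.17 and was lower in all 6 pairs, though by only -0.03 in the CT0 pair. TMT1, which loads glucose into the vacuole, ran from 397 to 500 in cycle 1 and from 321 to 416 in cycle 2, a difference of -0.22 ± 0.072 (SE, n = 6 pairs; adjusted p = 0.359 in limma), with -0.31 in the 4 pairs and -0.03 in the other 2. SWEET1 differed by -0.20 in the 4 pairs and by -0.19 in the other 2. SWEET8 differed by -0.18 over all 6, but by -0.29 in the 4 and by 0.05 in the other 2. The 2 members with the highest level, SWEET11, a sucrose exporter of the phloem, and SWEET17, a vacuolar fructose transporter, differed by -0.05 and 0.03.

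Expansins and xyloglucan hydrolases loosen or remodel the growing cell wall. Of 23 tested, 7 had a positive difference, and the median was -0.07. At an unadjusted p below 0.05, 4 were lower and 2 higher. EXPB3, a beta-expansin and the member with the highest level, had 1638, 1882 and 2497 in cycle 1 and 1423, 1733 and 1923 in cycle 2. It was lower in all 6 pairs, by -0.22 ± 0.057 (SE, n = 6 pairs; adjusted p = 0.302 in limma), but the days overlapped. XTH32 (-0.28) and XTH16 (-0.23) were lower in all 6 pairs as well. EXLB1, an expansin-like gene, had the opposite sign at 0.26, and EXPA15, the second by level, was at -0.08.

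The genes of photosynthesis gave values close to 0 or below it. The 4 tested photosystem subunits had a median of -0.10, and none had an unadjusted p below 0.05. PSAE-1, a stromal subunit of photosystem I, had 6324 to 9771 in cycle 1 and 7134 to 9418 in cycle 2 and differed by 0.03, whereas PSBY, a small subunit of photosystem II, differed by -0.11. The 3 Calvin cycle genes each had a negative difference, of which SBPASE, sedoheptulose bisphosphatase, was the largest in size at -0.14 (SE 0.073). PRK, phosphoribulokinase, and RCA were both at -0.05. In the 4 pairs with scan day 2, 2 of these 3 were positive, and in the other 2 pairs 0 were. The photosystem median was -0.04 in the 4 pairs and -0.20 in the other 2. The 3 LHCB4 genes, for an antenna protein of photosystem II, had a median of -0.02. In the 4 pairs with scan day 2, 3 were positive and their median was 0.05. In the other 2 pairs 0 were, with a median of -0.20.

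Other families were mixed. Of 42 UDP-glycosyltransferases, enzymes that attach sugars to hormones and secondary metabolites, 6 were higher and 2 lower at an unadjusted p below 0.05, with a median of 0.02. Of 11 glutathione transferases, 4 were higher and 0 lower. GSTU23 had ranges that barely met, with 178 to 221 in cycle 1 and 218 to 247 in cycle 2. In the serine carboxypeptidase-like family the list read symbols in capitals and held 5 tested genes, each with a negative difference over 6 pairs, although 3 of them were positive in the 2 pairs outside scan day 2. Counting lower-case symbols such as scpl25 too, 18 of 21 tested members had a negative difference, 4 of them with an unadjusted p below 0.05, and the median was -0.06.

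Hormone and clock genes were thinly covered. Of 8 tested auxin genes, GH3.17, which conjugates the auxin indole-3-acetic acid to amino acids, was higher in all 6 pairs. Its intensity was 613 to 834 in cycle 1 and 719 to 885 in cycle 2, a difference of 0.20 ± 0.051 (SE, n = 6 pairs; adjusted p = 0.302 in limma), and the median of the 8 was 0.001. The 5 gibberellin genes lay between -0.03 and 0.09. GI, the only core clock gene tested, differed by 0.06 ± 0.088 (SE, n = 6 pairs), with 3 of 6 pairs higher. The cold-response genes COR47 and COR15A differed by 0.02 and -0.02, each smaller than its standard error. The pairs of COR15A ran from -0.63 at CT12 to 0.66 at CT0. Of the 4 tested genes of the cold list, 4 were higher in the 2 pairs outside scan day 2, with a median of 0.35. In the 4 pairs with scan day 2, 1 was higher and the median was -0.14. LEA4-5, the other dehydration-response gene tested, differed by 0.06 ± 0.099.

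**Figure D5:**
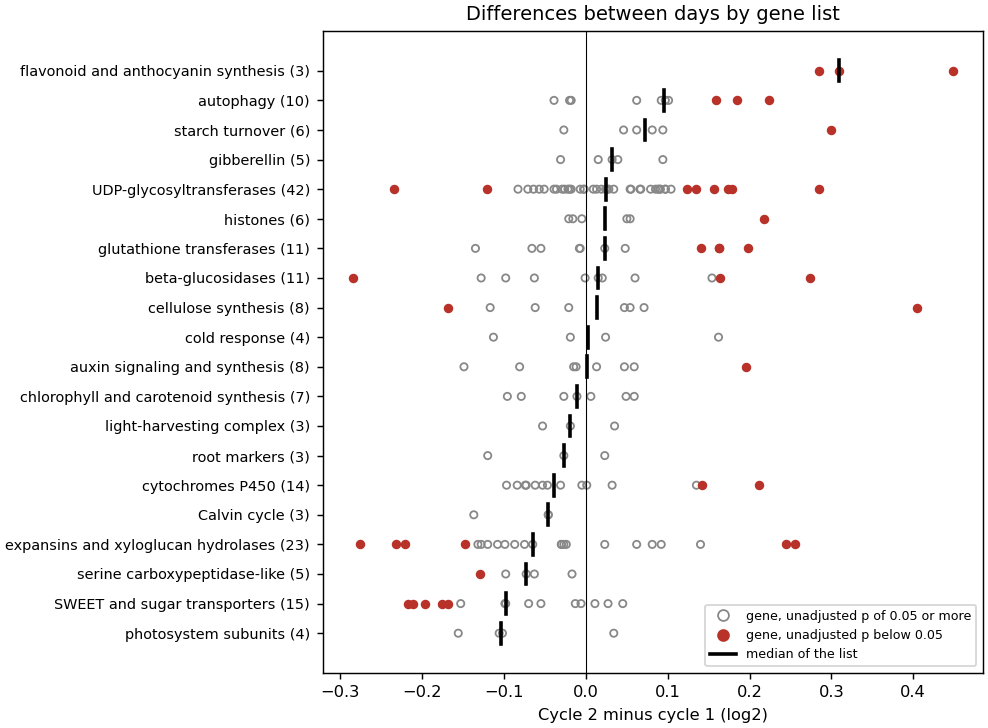
Log2 difference between cycle 2 and cycle 1 (horizontal axis) of each tested gene in 20 lists, with the number tested in brackets, black bars for medians and filled points for an unadjusted p below 0.05. The median is highest for anthocyanin synthesis (0.31, 3 genes) and lowest for photosystem subunits (-0.10, 4 genes).

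The median intensities of the arrays lay between 150 and 154. The values had already been scaled, so this does not show that the arrays were alike. Between days, 6 measures of array quality were compared with an exact sign-flip permutation test over the 6 pairs, two-sided. The smallest possible p of this test is 0.03125. The ratio of 3' to 5' signal of the actin control, which becomes larger as RNA is degraded or labelled shorter, differed most evenly, by 0.09 on the log2 scale with 5 of 6 pairs higher (exact p = 0.0625, 0.281 after adjustment over the 6). The hybridization controls, added in fixed amounts, differed by 0.13 with 5 of 6 pairs higher (exact p = 0.0938, adjusted 0.281). Their log2 level was 10.4 to 11.1 on scan day 1, 10.9 to 11.1 on scan day 2 and 10.45 on scan day 3. The 3' to 5' differences of GAPDH and ubiquitin, the poly-A controls and the share of low intensities had an exact p of 0.281 or more. The part of these measures in the differences between days was not tested.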

How the data were processed

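Transcripts were measured on 12 ATH1 arrays. The deposited values are linear intensities that the authors had already scaled; the submitters' processing notes name MAS5 and the study's methods dChip indexes, and the sources read do not settle which of them made these values. No depth applies to arrays, and their number limits the precision. Values were floored at 1 and log2 transformed. Of 22810 probe sets, 13513 had 1 gene symbol, 503 several and 8794 none. Entrez IDs matched 13436 and locus names 48 to RefSeq (TAIR10.1), but only 14.1% of genes with a RefSeq symbol gained a probe set, against 63.3% of those with a locus name only. The upper 69% of nuclear probe sets by mean were kept, with the probe set of highest mean for each gene, which left 9161.

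Differences were fitted in limma 3.58.1 (R 4.3.3; lmFit, eBayes) with circadian time as a factor and cycle as the tested term, and p-values were adjusted by Benjamini-Hochberg. A step between days and a steady trend are the same term in this fit. Deviations at the same circadian time correlated between days in each pair (r of 0.23 to 0.48), but at CT0 and CT20 another time correlated more (0.36 and 0.28). The fit was tested on simulated data whose shifts were larger than nearly all differences found here. That test does not show whether smaller differences could be detected. Named genes were the 15 largest called differences in each direction with the same sign in all 6 pairs, filled to 10 by unadjusted p, and the 2 list members with the highest level. Members and lists were chosen with earlier results of these data known. Scan days were read from the scanner records. Lists matched by symbol took in genes of other function, such as the peptidase PIP under aquaporins, and such lists are not described.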

Additional observations from a re-analysis of the deposited data

Results flagged for a closer look

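In the 20 named genes, the highest and lowest array of each day was compared with its nearest neighbour by Dixon's ratio, at its 95% critical value. Of 40 groups, 5 held a sample apart from the rest, and chance alone marks about 1 in 20 groups. OSM34 was low at subjective dawn on both days, at 1554 in the 24 h array of cycle 1 (nearest 2008) and at 1865 in the 48 h array of cycle 2 (nearest 2547). AT1G33811 was high at 480.5 in the 24 h array of cycle 1 (nearest 397.6) and at 336.9 in the 52 h array of cycle 2 (nearest 312.0). AT3G05730 was low at 172.6 in the 44 h array of cycle 1 (nearest 343.7), the array whose pair differed by -0.04.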

How the results depend on the processing

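Against 0 genes in either direction at an adjusted p of 0.05, alternatives gave few calls. The count of higher genes was 1 with cosine and sine terms, with these and scan day, within scan day 1 alone, with the upper 50% of probe sets, with 32 added before log2 and without _s_at and _x_at probe sets. It was 2 with every probe set and with a variance trend, and 12 with the 4 pairs of scan day 2. Lower genes numbered 1 within scan day 1 and 37 with the 4 pairs. They numbered 0 to 1 when 1 pair was left out, the 1 being AT3G05730 without CT20. With no adjustment they were 490 and 515. LTI30 was the called gene, or 1 of them, under 7 of these settings, with an adjusted p from 0.00982 to 0.0486. DFR was called in the scan day fit with cosine and sine (1.097) and within scan day 1 (1.07), and AT3G28550 within scan day 1 (-1.12). In both fits the level of the second day rests on the 48 and 52 h arrays. The 28 h array, alone on scan day 3, does not inform the day difference in either fit. DFR differed by 1.09 in the CT0 pair but by -0.23 in the CT4 pair, which holds that array. The DFR calls thus leave out the paired comparison that went the other way. With scan day and circadian time, the day difference rests on the CT0 pair alone, 1 array against 1. Calls at the adjusted threshold are therefore not given for that fit. Its unadjusted counts, given below, describe that pair only and do not show which differences hold with scan day taken into account. In that fit AT5G20790 differed by -2.23.

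Unadjusted counts moved further. Higher genes were 256 with scan day and circadian time, 222 with scan day and cosine terms, 178 within scan day 1, 1020 over every probe set, 906 with the 4 pairs, 255 with the other 2, and 263 to 652 with 1 pair left out. Lower genes were 278, 254 and 289 under the same first 3 settings, 322 with the upper 50%, 810 over every probe set, 960 with the 4 pairs, and 315 to 689 with 1 pair left out. Of the 20 named genes, 9 kept an unadjusted p below 0.05 with scan day and circadian time and 13 within scan day 1. None changed sign under any alternative. The choice by a shared sign fixed this in advance for fits on some of the pairs and for the unpaired fit. It also fixed it for scan day with circadian time, where only the CT0 pair informs the day difference. The unpaired fit, quantile normalization, median centring, linear intensities, averaged probe sets and no intensity filter called 0 genes. The cause was not tested. Of 1097 list medians recomputed, 57 moved by more than 1 SD of the pairs. Few arrays, 1 for each time, limit what could be detected.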

Other observations

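Beyond the named genes and lists, several genes with a known role differed in the same direction in all 6 pairs. They were picked after their values were seen, and none passed the adjusted threshold in limma. DI21, a drought-induced gene, was higher in cycle 2 by 0.27 ± 0.058 (SE, n = 6 pairs; adjusted p = 0.300). PDF2.1, a plant defensin, was higher by 0.36, with 0.75 in the CT0 pair and 0.10 in the CT16 pair. BZIP53, a bZIP factor of amino acid and seed maturation genes, was higher by 0.19 and JAL22, a jacalin-like lectin, by 0.18. TBL36 and TBL38, of the family that acetylates wall polysaccharides, were higher by 0.23 and 0.16. AUR1, an Aurora kinase of mitosis, was lower by -0.19, and SMZ, a repressor of flowering, by -0.15.

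Values outside this set varied more. CSLA01, a cellulose synthase-like mannan synthase, was higher by 0.40 ± 0.118 (SE, n = 6 pairs) with 5 of 6 pairs higher. BGLU33 was higher by 0.27 in all 6 pairs, whereas BGLU28, a beta-glucosidase induced by sulfur starvation, was lower by -0.29, with -0.69 in the CT0 pair and 0.10 in the CT4 pair. HIS1-3, a linker histone variant induced by drought, was higher by 0.22 with 5 of 6 pairs higher. FMA, for the guard cell factor FAMA, was lower by -0.15, with medians of 137 and 124. The seed storage marker OLEO3 differed by -0.16, and ICL, an enzyme gene held by the same list, by -0.10, each with overlapping days.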
